A study of Tupaia belangeri with 6 samples.

Results

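The oxidative phosphorylation subunit genes of the tree shrew were described in the adult prefrontal cortex. The set was chosen by gene name alone: loci whose symbol was that of a nuclear-encoded subunit of complexes I to V (symbols of the NDUF, SDH, UQCR, CYC1, COX and ATP5 families) and carried no "li" suffix. It held 54 of the 95863 loci in the deposited tables: 26 of complex I, 3 of complex II, 4 of complex III, 9 of complex IV, 11 of complex V, and ATP5IF1, the inhibitor protein of the ATP synthase. The 3 female and 3 male animals were adult tree shrews (Tupaia belangeri) with no treatment or allele named, and each gave 1 poly(A)-enriched RNA library from prefrontal cortex that was not pooled. Every male was listed as older than every female in the sample table of the study, and the effects of age and of sex cannot be told apart. Values were TPM, a transcript level that is already scaled for transcript length and for the total of the library. The tables analysed here give no read totals, so the depth of each library is unknown from them and no counting interval was computed.

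Oxidative phosphorylation is carried out in the inner mitochondrial membrane. Complexes I and II pass electrons from NADH and succinate to ubiquinone, complex III passes them on to cytochrome c, complex IV reduces oxygen, and complex V, the ATP synthase, uses the proton gradient to make ATP. Neurons hold large amounts of these complexes because ion pumping after synaptic activity consumes ATP, and most of the subunits are encoded in the nucleus. The subunits encoded by the mitochondrial genome were not analysed here.

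The tissue label was checked against markers. Of 12 neuronal markers, 10 had a locus, and their summed TPM was between 8801 and 11430 in the 6 libraries, with the neurofilament gene NEFL listed at 0. The summed TPM of the oligodendrocyte markers was 565 to 747 in the females and 159 to 418 in the males, and that of the red blood cell markers was 1288 to 2553 in the females and 68.9 to 112 in the males. Loci without a strand held 2.30% to 3.33% of the TPM in the females, 2.67% in male 4, 5.16% in male 1 and 7.88% in male 5. The part of these differences in the results was not tested. In bulk tissue, fewer cells of a type and less RNA per cell cannot be told apart.

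The levels of the members covered a wide range. The mean level over the 6 animals was at least 100 TPM for 23 of the 54 members, at least 10 TPM for 32 and at least 1 TPM for 37, and 11 were listed at 0 in every library. Summed over the members, the level was 9786, 8741 and 11590 TPM in females 1, 3 and 4, and 10347, 10032 and 7825 TPM in males 1, 4 and 5, which was 0.817% to 1.20% of the TPM of each library. The highest sum, in female 4, was 1.48 times the lowest, in male 5, and the ranges of the sexes overlapped. The ATP synthase genes ATP5F1B, ATP5PO and ATP5MG, held between 32.6% and 43.3% of the sum.

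**Figure D1:**
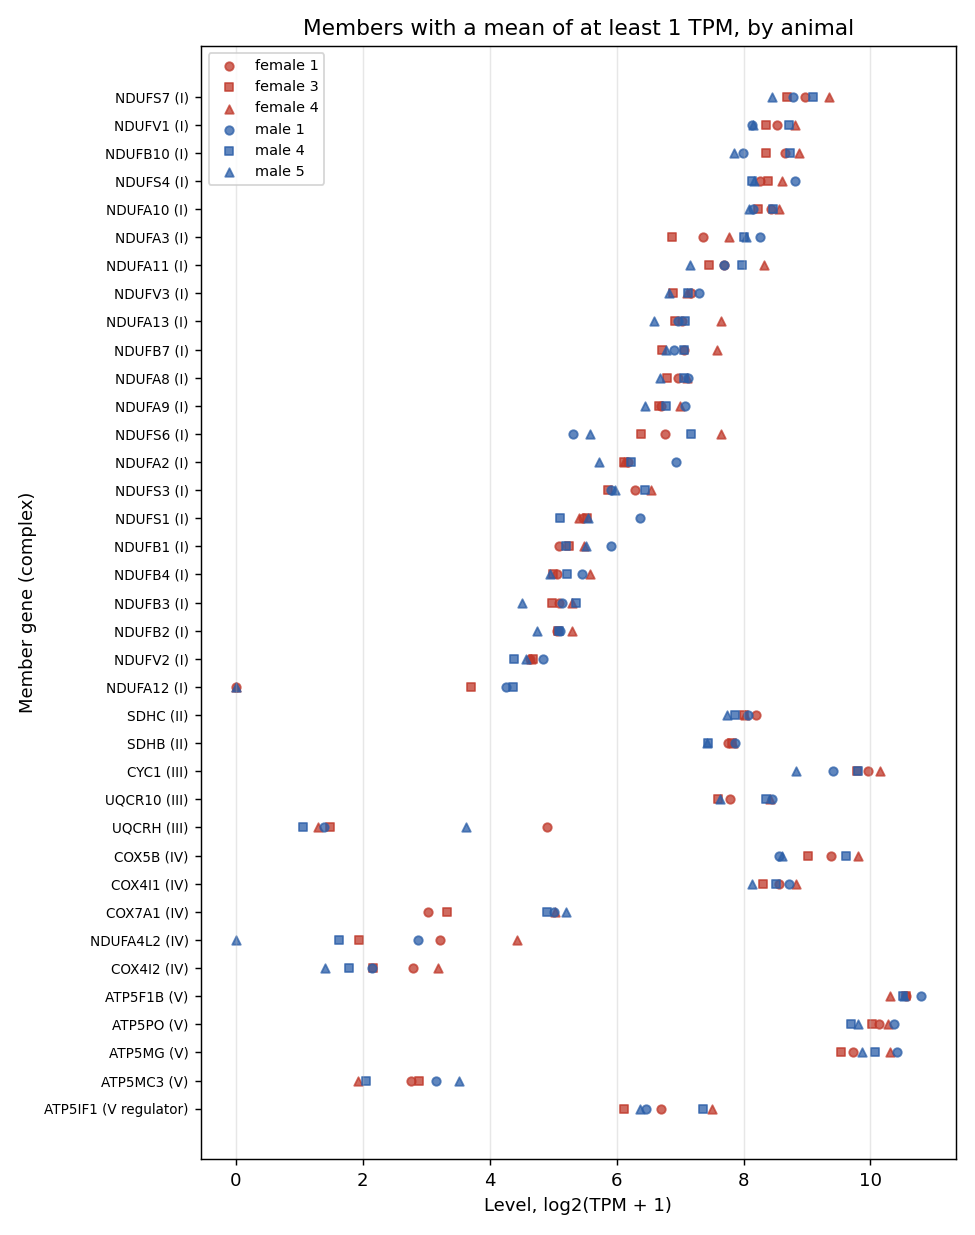
Level of the 37 members with a mean of at least 1 TPM in each of the 6 animals, as log2(TPM + 1), with the complex of each gene in brackets. Red symbols are females and blue symbols are males. Most members sit within a narrower band across the animals, while NDUFA12, UQCRH, NDUFA4L2, NDUFS6 and COX7A1 are spread widely.

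Complex I, the NADH dehydrogenase, has a conserved catalytic core and many accessory subunits around it. Of its nuclear-encoded core, NDUFS7, which carries the last iron-sulphur cluster before ubiquinone (chromosome 27, 10192882 to 10231429, minus strand, build TS_3.0), had the highest level, with 502, 410 and 650 TPM in females 1, 3 and 4 and 438, 545 and 348 TPM in males 1, 4 and 5. NDUFV1, which binds NADH and FMN, followed with 367, 327 and 446 TPM in the females and 280, 418 and 283 TPM in the males. In both genes female 4 was highest among the 6 animals, and the sexes overlapped. The other core subunits, which carry iron-sulphur clusters or form the peripheral arm, were lower: NDUFS3 had a mean of 72.4 ± 15.1 TPM (SD, n = 6), NDUFS1 48.5 ± 16.8 TPM and NDUFV2, the partner of NDUFV1 in the NADH-binding module, 23.8 ± 2.49 TPM. The proteins of the core are held at equal number in the complex, while the mean transcript levels of its genes differed from 23.8 to 482 TPM. NDUFV2 also varied least among the 32 members of 10 TPM or more, with a coefficient of variation of 10.4%.

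The accessory subunits of complex I ranged from 352 TPM for NDUFB10, a subunit of the membrane arm, down to 0. NDUFS4, which assists the assembly of the NADH-binding module, had a mean of 340 ± 66.0 TPM (SD, n = 6), and NDUFA10 had a mean of 321 ± 42.2 TPM. NDUFS6, a zinc-binding subunit needed late in assembly (chromosome 10, 57709407 to 57716532), had the largest spread among the members of 10 TPM or more. Its level was 107, 82.8 and 200 TPM in females 1, 3 and 4 and 38.6, 144 and 46.9 TPM in males 1, 4 and 5. Males 1 and 5 were therefore the lowest animals, female 4 was the highest at 5.18 times male 1, and male 4 stood among the females.

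Complex II, succinate dehydrogenase, links the citric acid cycle to the respiratory chain and is encoded wholly in the nucleus. SDHC, a membrane anchor, had a mean of 254 ± 28.0 TPM (SD, n = 6) and SDHB, the iron-sulphur subunit, 207 ± 28.3 TPM. Both varied less than 1.5-fold from the highest to the lowest animal. SDHA, the flavoprotein that oxidises succinate, was listed at 0 under its plain symbol in every library.

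In complex III, CYC1, the cytochrome c1 that hands electrons to cytochrome c (chromosome 13, 717319 to 719357, minus strand), had 1001, 882 and 1138 TPM in females 1, 3 and 4 and 680, 892 and 454 TPM in males 1, 4 and 5. Females 1 and 4 were above every male, and female 3 stood just below male 4. UQCR10, a small subunit of the complex, had a mean of 271 ± 75.3 TPM (SD, n = 6). UQCRH, the hinge protein that aids the docking of cytochrome c, was at 28.9 TPM in female 1 and 11.4 TPM in male 5 but at 1.08 to 1.79 TPM in the other 4 animals. The 2 high animals were of opposite sex. Its locus spans 580 bp. UQCRB, another small subunit, did not exceed 0.435 TPM in any animal.

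Complex IV, cytochrome c oxidase, was led by COX5B and COX4I1, nuclear subunits around the catalytic core. COX5B had 668, 518 and 892 TPM in females 1, 3 and 4 and 376, 781 and 388 TPM in males 1, 4 and 5, so males 1 and 5 were again the lowest animals. COX4I1 had a mean of 368 ± 64.5 TPM (SD, n = 6), and its alternative isoform COX4I2, known from lung and from hypoxic cells, had a mean of 4.18 ± 2.42 TPM. COX7A1, the isoform of subunit 7a best known from heart and skeletal muscle, had 7.20 to 35.8 TPM. NDUFA4L2, a hypoxia-inducible relative of the subunit NDUFA4, ranged from a listed 0 in male 5 to 20.6 TPM in female 4. COX6A1, the ubiquitous isoform of subunit 6a, and COX5A, another nuclear subunit, were listed at 0 under their plain symbols.

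The 3 highest members of all belonged to complex V. ATP5F1B, the catalytic beta subunit of the F1 head (chromosome 6, 43636542 to 43717267), had 1512, 1516 and 1261 TPM in females 1, 3 and 4 and 1781, 1461 and 1482 TPM in males 1, 4 and 5, and it ranked between 38 and 74 among all loci of a library. ATP5PO, the stalk subunit that confers oligomycin sensitivity, had a mean of 1074 ± 195 TPM (SD, n = 6), and ATP5MG, a membrane subunit, had a mean of 1038 ± 246 TPM. All 3 were highest in male 1. ATP5PO was read from a locus of only 794 bp (chromosome 14, 4271063 to 4271856). ATP5MC3, one of the genes for the c subunit of the proton-driven ring, had 2.81 to 10.5 TPM, and its 2 relatives ATP5MC1 and ATP5MC2 were listed at 0. ATP5IF1, which blocks ATP hydrolysis by the synthase, had a mean of 114 ± 46.4 TPM and was highest in female 4 (180 TPM) and male 4 (164 TPM).

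The members listed at 0 include subunits without which the complexes cannot work, and loci of the same names with an "li" suffix were read beside them. The tables hold 70 loci whose symbol is that of a subunit followed by "li" and a number, which were not members. Of these, 35 were listed at 0 and 8 had a mean of at least 100 TPM. For 6 of the 11 members at 0 (SDHA, COX5A, COX6A1, ATP5F1A, ATP5PD and ATP5MC2) an "li" locus of the same symbol had at least 10 TPM. COX6A1li1 (chromosome 22, 11234614 to 11295005) had 1332, 1175 and 1802 TPM in females 1, 3 and 4 and 1865, 1341 and 1090 TPM in males 1, 4 and 5. Its mean of 1434 TPM lay between those of ATP5PO and ATP5F1B, while the plain COX6A1 locus on chromosome 14 was at 0 in every library.

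ATP5F1Ali2, named after the alpha subunit of the F1 head, had a mean of 1111 ± 196 TPM (SD, n = 6), COX5Ali2 842 ± 133 TPM, ATP5PDli4 503 ± 72.7 TPM and SDHAli1 290 ± 60.4 TPM. ATP5MC2li1 was lower, at 88.2 ± 15.1 TPM. Whether an "li" locus is the functional gene or a processed copy was not tested, and reads from near-identical copies can be divided between loci, so the levels of both kinds of locus are uncertain. The other 5 members at 0, NDUFC1, ATP5PB, ATP5MC1, ATP5MF and ATP5F1C, had no "li" locus of 10 TPM. Cytochrome c itself, CYCS, was also listed at 0. The "li" loci were looked for only under the subunit symbols, so not for CYCS, NEFL or the citrate synthase gene CS.

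**Figure D2:**
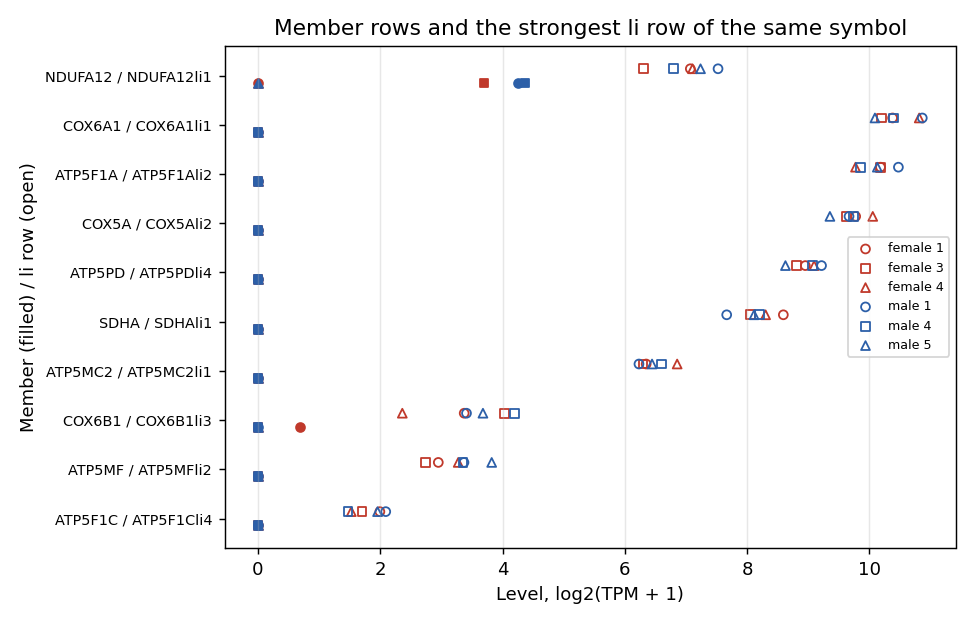
Level, as log2(TPM + 1), of members listed at or near 0 and of NDUFA12 (filled symbols) beside the strongest "li" locus of the same symbol (open symbols), in each of the 6 animals, with red for females and blue for males. The COX6A1, ATP5F1A, COX5A, ATP5PD and SDHA loci are at 0 in every animal while their "li" loci have means of 290 to 1434 TPM.

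Counting the "li" loci changed the sums of the complexes unequally. All "li" loci named after a subunit were counted, also those whose symbol had no member. Of the "li" loci without a member of the same symbol, 4 had a mean of at least 10 TPM. The highest were COX7Bli1 (377 TPM) in complex IV and NDUFB9li1 (290 TPM) in complex I. The mean summed level of complex IV went from 1008 TPM over the members to 3672 TPM with the "li" loci, which held 72.6% of the larger sum. Complex V went from 3620 to 5401 TPM, complex I from 3397 to 3819 TPM and complex II from 461 to 751 TPM, while in complex III the "li" loci held 0.00702% of the sum. The sums of different complexes were not ranked, since they cover different shares of the subunits: 4 of the 9 symbols listed for complex III and 9 of the 16 listed for complex IV were members. Of the subunit symbols in the RefSeq gene table, 20 matched neither a member nor an "li" locus and were not analysed here, UQCRC1 and UQCRC2 of complex III among them.

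**Figure D3:**
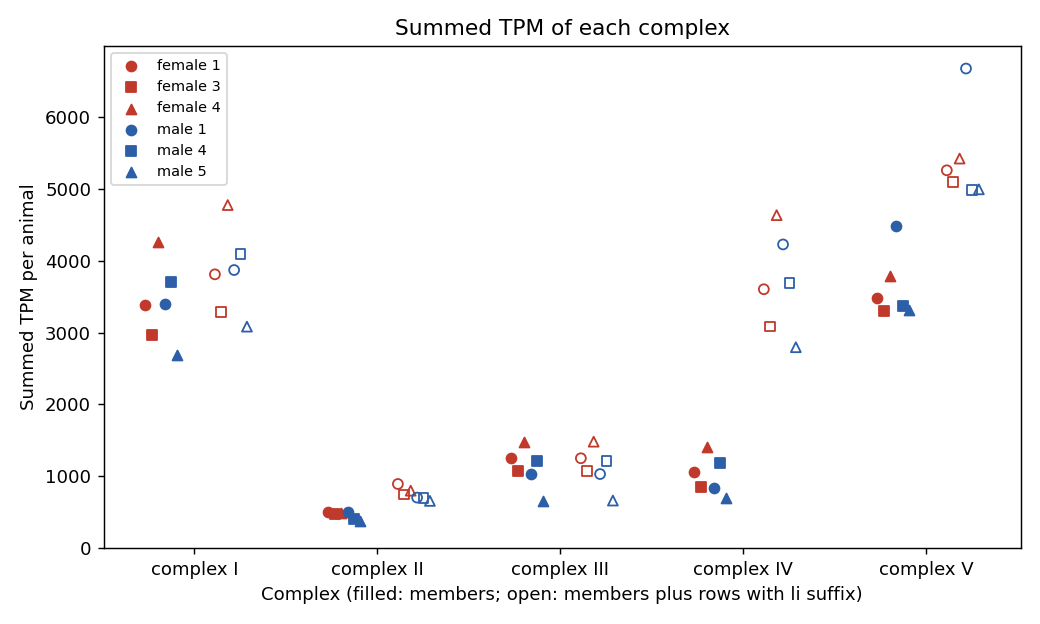
Summed TPM of each complex in each of the 6 animals, for the members (filled) and for the members with all "li" loci named after subunits of the complex (open). The "li" loci include those whose symbol had no member. Red symbols are females and blue symbols are males. The sum of complex IV moves most when the "li" loci are added, from a mean of 1008 to 3672 TPM.

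Several low loci lie across expressed genes on the opposite strand, and no strand-specific protocol is named, so reads of overlapping loci cannot be told apart with certainty. The NDUFA12 locus is a stretch of 1235 bp inside AUH, which had a mean of 67.8 TPM. NDUFA12, an accessory subunit of complex I, was listed at 0 in females 1 and 4 and in male 5 and had 12 TPM in female 3, 18.2 TPM in male 1 and 19.6 TPM in male 4. In contrast, NDUFA12li1 on chromosome 6 had 77.9 to 183 TPM in all 6 animals. NDUFC1 spans 294 bp inside PTK2 (63.2 TPM), and NDUFS5, the only member on the X chromosome, overlaps GRIA3 (179 TPM). Of the 32 members of 10 TPM or more, 28 overlap a locus on the opposite strand, and for 11 that locus or loci had more than 10% of the member's own mean TPM. The largest were RPS2li13 (1465 TPM), which shares 94 bp with NDUFB10, HORMAD1 (626 TPM) across NDUFS3, and EEF1B2 (500 TPM) at NDUFS1.

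Many members were highest in the same animals. Of the 32 members of 10 TPM or more, 15 were highest in female 4 and 14 in male 1, against 17.1% and 16.0% of the 8685 genes of that level. Male 5 was lowest for 16 of the 32, against 18.8% of those genes. The median deviation from the mean of the 6 animals, on the log2 scale, was 0.28 in female 4, 0.18 in male 1, 0.07 in male 4, 0.02 in female 1, -0.12 in female 3 and -0.27 in male 5. Over the 8685 genes the same medians lay between -0.08 and 0.12, and in female 4, where the members were highest, the median of all these genes was -0.08. Neither sex was high or low as a whole: female 4 and male 1 were above the mean, and male 5 and, by less, female 3 were below it.

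The complexes did not share 1 order of animals. All 3 complex V members of 10 TPM or more were highest in male 1. Of the 21 complex I members of that level, 11 were highest in female 4 and 9 in male 1, and 12 were lowest in male 5. Complexes II and III had 2 members of that level each, of which 1 was highest in male 1. The median coefficient of variation of the members was 21.6%, and it was 21.4% over the 8685 genes. In 6 members, NDUFS6, CYC1, COX5B, NDUFB10, NDUFV1 and NDUFA10, the level was lower in males 1 and 5 than in the other 4 animals, where 18% of the genes of 10 TPM or more did the same. In 3 members, NDUFA3, NDUFS1 and NDUFB1, it was higher in males 1 and 5 than in the others, against 7.74% of the genes. Both counts were close to their backgrounds.

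**Figure D4:**
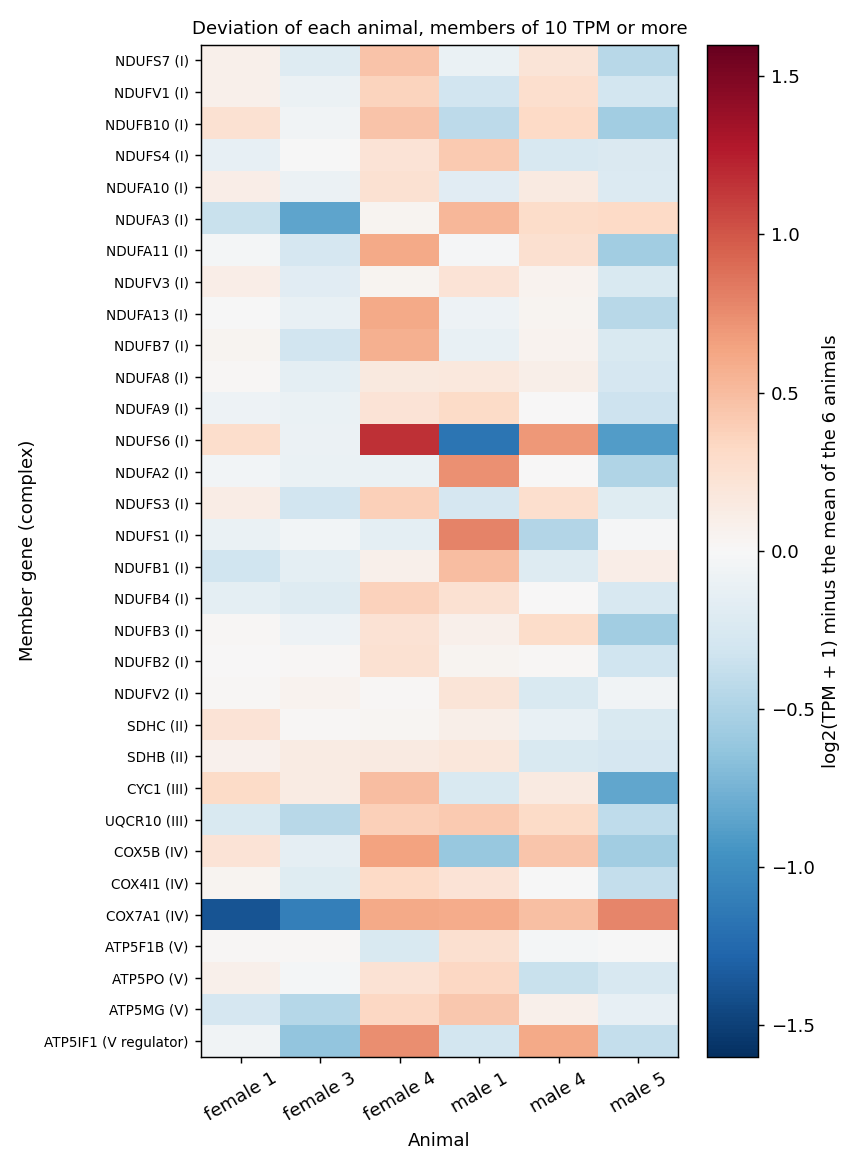
Deviation of each of the 6 animals from their mean, in log2(TPM + 1), for the 32 members of 10 TPM or more (rows, complex in brackets). Red is above and blue below the mean. Female 4 is above the mean and male 5 below it for most complex I members, and the ATP synthase members are highest in male 1.

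The lists of related genes gave other orders of the animals. The 26 assembly factors of 10 TPM or more, which build the complexes but are not part of them, had medians between -0.04 and 0.02 in every animal. The 10 citric acid cycle enzymes of that level had their highest median in female 3 (0.16) and their lowest in male 4 (-0.13). The neuronal markers were lowest in female 4 (-0.31), the animal in which the members were highest, and at 0.06 in male 5. In male 5, where the members were lowest, the oligodendrocyte markers had a median of -0.998 with 5 of 5 lowest there, and the microglial markers had a median of -0.52 with 3 of 5 lowest there. In female 4 the same medians were 0.24 and -0.31, and in male 4 they were -0.70 and 0.39. The astrocyte markers had a median of -0.48 in female 4 and 0.18 in male 5, and the endothelial markers 0.02 and 0.19. The part of these cell types in the members' values was not tested. The 13 "li" loci of 10 TPM or more had a median of 0.15 in female 4 and -0.04 in male 5.

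The sexes were compared with limma over 28740 genes that had at least 0.1 TPM in 3 or more animals, as log2(TPM + 1), which understates the change of low genes. Of the 54 members 40 passed this filter. None of them differed between the sexes at an adjusted p under 0.1, the smallest limma adjusted p of a member being 0.925, while 0.0174% of all genes tested (5 genes) did. At an unadjusted p under 0.05, 0 members were higher in females, where 2.4% of all genes tested were, and 2 members were higher in males, where 2.61% of all genes were. Counts this small were near their backgrounds. The median standard error of the log2 difference over the members of 10 TPM or more was 0.24, which sets how small a difference these 6 animals could show. The 3 animals of a sex are separate by their labels.

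The sign of the female minus male difference was positive for 28 of the 40 members and negative for 12, while 46.6% of all genes tested were positive. The median log2 difference was 0.12 over the members and -0.03 over all genes tested. By complex the medians were 0.12 for complex I, 0.20 for complex II, 0.32 for complex III, 0.29 for complex IV and -0.20 for complex V. These medians moved with single animals. Over all members the median was 0.01 without female 4, 0.02 without male 5 and 0.21 without female 3. That of complex I was -0.03 without female 4, -0.01 without male 5 and 0.22 without male 4. With 1 animal left out, complex II ranged from 0.13 to 0.32, complex IV from 0.13 to 0.48 and complex V from -0.24 to -0.07. The median of complex III was -0.08 without female 1 and 0.04 without male 4.

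**Figure D5:**
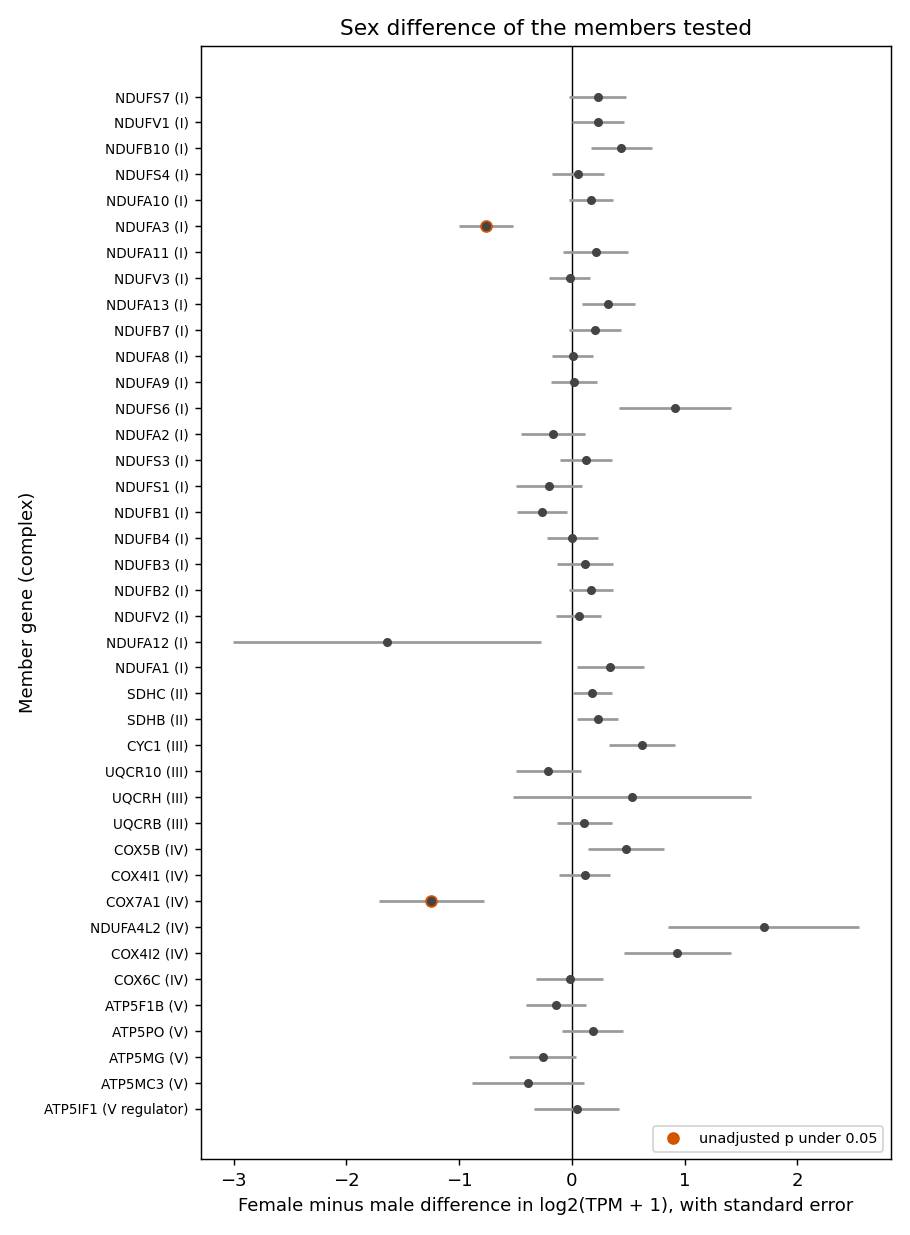
Female minus male difference in log2(TPM + 1) with its standard error from limma for the 40 members tested (rows, complex in brackets), 3 animals a sex. Orange marks the 2 members, NDUFA3 and COX7A1, with an unadjusted p under 0.05. Most points lie within 0.3 of 0, and the widest bars belong to NDUFA12, UQCRH and NDUFA4L2.

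NDUFA3, a small accessory subunit in the membrane arm of complex I (chromosome 27, 13792937 to 13794891), had 164, 117 and 217 TPM in females 1, 3 and 4 and 305, 257 and 261 TPM in males 1, 4 and 5. Every male was above every female, an arrangement that 4.99% of all genes tested showed. The log2 difference was -0.76 with a standard error of 0.24, and the limma adjusted p was 0.925. Its unadjusted p stayed under 0.05 when any 1 animal was left out. It no longer passed with the share of strandless loci as a covariate (log2 difference -0.70) or with the replicate numbers as a block. Without males 1 and 5, which leaves 1 male, the log2 difference was -0.67.

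COX7A1 had 7.20, 9.05 and 31.6 TPM in females 1, 3 and 4 and 31.5, 29.0 and 35.8 TPM in males 1, 4 and 5. Females 1 and 3 were low, and female 4 stood within the males, so the sexes overlapped. The log2 difference was -1.25 with a standard error of 0.47 and a limma adjusted p of 0.925. Its unadjusted p no longer passed 0.05 when female 1 (log2 difference -0.87), female 3 (-1.01), male 1 (-1.26), male 4 (-1.31) or male 5 (-1.17) was left out. It stayed under 0.05 without female 4, where the difference was -1.86. Nor did it pass with the share of strandless loci as a covariate, with the replicate numbers as a block or without the limma trend. ESRRG, a nuclear receptor that drives genes of mitochondrial energy metabolism, had 0.420, 0.567 and 10.3 TPM in the females and 13.2, 11.1 and 13.1 TPM in the males. Females 1 and 3 were again the low animals, and the limma adjusted p of ESRRG was 0.925. The share of all genes with this arrangement was not computed, and a link between ESRRG and COX7A1 was not tested.

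In the other direction, COX4I2 was the only tested member with no overlap of the sexes. It had 5.93, 3.48 and 8.14 TPM in females 1, 3 and 4 and 3.44, 2.43 and 1.66 TPM in males 1, 4 and 5, so every female was above every male, which 4.82% of all genes tested showed. Female 3 and male 1 were nearly level. The log2 difference was 0.94 with a standard error of 0.47 (limma adjusted p = 0.925), and its unadjusted p passed 0.05 with a filter at 1 TPM, with quantile normalization and without the trend. COX4I2 made up 1.56%, 1.08% and 1.76% of the summed COX4I1 and COX4I2 level in the females, and in the males it made up 0.810%, 0.666% and 0.590%. This share, which does not depend on the scaling between libraries, differed by 0.779 percentage points (exact two-sided permutation test, p = 0.1, the smallest that 3 animals against 3 can give). With the mean per-base coverage in place of TPM the shares were 0.660% in females and 0.322% in males, again without overlap. The 6 endothelial markers summed to 368 to 437 TPM in the females and 336 to 504 TPM in the males. Of the 5 tested, 3 had positive and 2 negative female minus male differences, and only CLDN5, a claudin, had an unadjusted p under 0.05 (33.5 to 60.7 TPM for females, 23.2 to 28.9 TPM for males). The part of these markers in the COX4I2 values was not tested.

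The other large differences changed with the animals or the terms of the fit. NDUFA4L2 had 8.33, 2.83 and 20.6 TPM in the females and 6.28, 2.08 and 0 TPM in the males, with a log2 difference of 1.70 and a standard error of 0.85, and its unadjusted p passed 0.05 only when female 3 or male 1 was left out. NDUFS6 had a log2 difference of 0.91 and a standard error of 0.50, and CYC1 0.62 with a standard error of 0.29. With 1 animal left out, the difference ranged from 0.55 to 1.49 for NDUFS6 and from 0.36 to 0.85 for CYC1. When male 4 was left out, 4 members (CYC1, NDUFB10, NDUFS6 and COX5B) had an unadjusted p under 0.05 with higher levels in females, compared with 0 over all animals, while the share of all genes tested went from 2.4% to 4.25%. Of those higher in males, NDUFA12 differed by -1.64 with a standard error of 1.37 over all animals. Its unadjusted p passed 0.05 without male 5 (-3.08) and with the share of strandless loci as a covariate (-3.80), and 3 of its 6 values are listed zeros. The difference of ATP5MC3 was -0.39 with a standard error of 0.49 and that of NDUFB1, an accessory subunit of complex I, -0.27 with 0.22. None of these had an adjusted p under 0.1 in limma.

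The wider pathway was read from lists of names. Of 47 assembly factors 35 had a locus and 32 were tested; 16 differences were positive and 16 negative, and 0 had an unadjusted p under 0.05. COX19, which serves copper delivery to complex IV, was the highest of them at a mean of 165 TPM. Of 13 citric acid cycle enzymes 12 had a locus and 11 were tested, with 8 positive and 3 negative differences and 0 with an unadjusted p under 0.05. MDH2, the malate dehydrogenase of mitochondria, had a mean of 1119 TPM, near the 1074 TPM of ATP5PO, and citrate synthase (CS) was listed at 0. Of the 12 nuclear regulators of mitochondrial genes 9 had a locus and 8 were tested, and ESRRG was the only one with an unadjusted p under 0.05. YY1, a broadly used transcription factor, was the highest of this list at a mean of 38.8 TPM.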

How the data were processed

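RNA of the adult prefrontal cortex was sequenced in 6 tree shrews, 3 of each sex. The authors mapped the reads to build TS_3.0 with HISAT2 2.2.1, assembled and merged transcripts with StringTie 2.2.1 and deposited, for each animal, the TPM, the FPKM and the mean coverage of each locus. No strand-specific protocol is named. The deposited FPKM values were not used, and coverage entered only the COX4 share. Animals were grouped by the sex in their labels.

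Values were handled in Python 3.11.15 with pandas 2.3.3. TPM was summed over the rows of a locus, and members were found by symbol; 51 of the 54 symbols are in the RefSeq gene table of another assembly (TupChi_1.0), which was used for names only. The test was limma 3.58.1 (R 4.3.3) with a mean-variance trend on log2(TPM + 1), with sex as the only term, over 27996 autosomal and 744 X-linked genes that reached 0.1 TPM in 3 animals or more. The male-only segment of the X chromosome (4542400 to 6144400) and chromosome 26 before 3132930 were removed, and Benjamini-Hochberg adjustment ran within autosomes and within X at a threshold of 0.1. On simulated data for 28740 genes with 200 changed, 128 were called, with 11 other calls and 0 calls when nothing was changed. Of the changed genes with a log2 change of 2 or more, 84.3% were called. Of the 40 members tested, 27 had a log2 difference under 0.3 in size, and the share called at that size was not tested. Members named in the text were the 3 highest and the lowest of each complex, the core and catalytic members, paralogs, members with an unadjusted p under 0.05 and the 5 largest differences in each direction; further members were named after their values were seen. The members and lists were chosen with earlier results of these data known. Alternatives were the pseudocount, the filter, the scaling, a covariate, a replicate block, the trend, the contigs and each animal left out.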

Additional observations from a re-analysis of the deposited data

How the results depend on the processing

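No member had an adjusted p under 0.1 in limma under any alternative (range of counts with 1 animal left out 0 to 0), and the unadjusted counts were those that moved. Members with an unadjusted p under 0.05 and higher levels in females, 0 over all animals, numbered 2 with a filter at 1 TPM, 1 with quantile normalization, 1 without the trend and 0 to 4 with 1 animal left out. The shares of all genes tested in those fits were 2.89%, 2.58%, 2.14% and 1.39% to 4.25%. Those higher in males, NDUFA3 and COX7A1 over all animals, numbered 1 with the share of strandless loci as a covariate (NDUFA12, with both others lost), 1 without the trend (NDUFA3), 1 to 2 with 1 animal left out (1 without female 1, female 3, male 1 or male 4) and 0 without males 1 and 5 (shares of all genes 1.58%, 3.05%, 1.43% to 4.71% and 3.43%), an alternative chosen after seeing the data that leaves a lone male assumed to vary like the females. The animals' numbers did not pair them: deviations of female 1 and male 1 correlated at 0.00098 and of female 4 and male 4 at 0.038. With these numbers as a replicate block the counts were 1 higher in females (NDUFS6; 1.85% of all genes) and 1 higher in males (NDUFA12 at -4.31; 2.19%), NDUFA3 (-0.57) and COX7A1 (-0.93) no longer passed, and 3 genes in all passed the adjusted threshold. The median log2 difference without males 1 and 5 was -0.067 for complex I and 0.20 for complex V, and that of complex III ranged from -0.076 to 0.48 with 1 animal left out. Adding the "li" loci moved the mean sums to 751 TPM for complex II, 3672 TPM for complex IV and 5401 TPM for complex V. Of single members, ATP5MC3 turned to 0.19 with the covariate and 0.47 without males 1 and 5, where NDUFB1 turned to 0.070 and NDUFS6 to -0.24; UQCRH ranged from -0.64 (without female 1) to 1.34. Where no construction shows it, the cause was not tested. The tables analysed here give no counts, so counting error was not separated from the spread between animals, and with 3 animals a sex an exact test cannot go below 0.1.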
